A study of Mus musculus with 6 samples.

Results

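Genes of mitosis and chromosome segregation were measured in Ly6D-negative common lymphoid progenitors (CLPs) as a list of 50 genes. The list was made from gene names and roles, without a rule on measured values, though earlier results of these data were known by then. Of these 50 genes 48 had a probe set of their own, and all 48 were bright enough to be tested, among 13308 tested genes of 22180 with a value. The cyclin gene Ccnb1 and the condensin gene Ncapg were not analysed here, since no probe set was theirs alone. Each of the other members had 1 probe set, except Cks2, which had 4.

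CLPs are bone marrow cells from which T, B and natural killer lymphocytes arise. The sort took lineage-low, cKit+, Sca+, CD127+, Thy1.2- and Ly6D- cells from mice aged 6 to 8 weeks, the day after the last of daily diphtheria toxin injections over 4 weeks. The mutant mice were OcnCre+;iDTR+/-, so that Cre under the osteocalcin promoter switched on the toxin receptor in osteocalcin-expressing cells, and the control mice were OcnCre-;iDTR+/- and had the receptor allele without Cre. Both groups received the toxin, so that it is shared and only the Cre differs, and the comparison asks how CLPs differ once osteocalcin-expressing cells have been deleted. RNA was amplified, labelled and hybridised to 3 control and 3 mutant Affymetrix arrays, and values are log2 intensities. Where values are given per array, they stand in the order of replicates 1, 2 and 3, the controls first. Nothing in the labels says whether a replicate was 1 mouse or a pool, and a p-value here reflects nothing beyond the spread between the samples, which may be technical. In a bulk sample, fewer dividing cells and less mitotic RNA per cell cannot be told apart.

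Mitosis is driven by the kinase CDK1 bound to cyclins A and B, which condenses the chromosomes and builds the spindle. The kinetochore ties each chromosome to spindle fibres, and the spindle checkpoint holds the cell until all chromosomes are attached. The anaphase promoting complex then marks cyclin B and securin for destruction, sister chromatids part, and cytokinesis splits the cell. Most of these genes are transcribed late in the cell cycle, so their RNA is known as a mark of dividing cells, and lymphoid progenitors divide as they expand.

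The mitosis genes leaned lower in mutant CLPs by about as much as other genes of the same brightness, and no member passed the test. Of 48 members 45 had a lower mutant mean, where 57.5% of all tested genes did, and the median log2 difference between mutant and control was −0.19, against −0.04 over all tested genes. The members' median moved to 0.0077 when each array was centred on genes of like brightness and to −0.0077 after cyclic loess. In limma 0 of 48 members had an adjusted p under 0.05, where 0% of the tested genes did (adjusted p = 0.594 to 0.995 over the members). At an unadjusted p under 0.05, 5 members were lower (10.4%, against 6.02% of tested genes and 9.47%, 11.6% and 9.99% in the brightness groups 8, 9 and 10 described next, which held all members) and 0 were higher (against 2.01%). The 3 mutant values lay below the 3 control values for 12 members (25%), against 9.99% of tested genes and 15.9%, 17.2% and 16.8% in groups 8, 9 and 10. They lay above them for 0 members, against 5.4% of tested genes.

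Bright genes as a whole were lower in the mutants. When the tested genes were ranked by their mean over the 6 arrays and divided into 10 groups, the median difference ran from 0.09 in the dimmest group to −0.21 in the brightest. All 48 members fell into the 3 brightest groups. In the brightest group, with means from 8.27 to 12.50, the 33 members had a median difference of −0.19 and the 1331 genes of the group one of −0.21. There 32 of the 33 members had a lower mutant mean, against 86.0% of the group, and 8 of them (24.2%) had groups that did not overlap, against 16.8%. In the next group the 12 members had a median of −0.19, as did the group, and 10 of the 12 were lower, against 83.2%. Group 8 held 3 members, with a median of −0.22 against −0.16. Once each array was centred on the median of each of the 10 groups, 23 members had a lower and 25 a higher mutant mean.

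**Figure D1:**
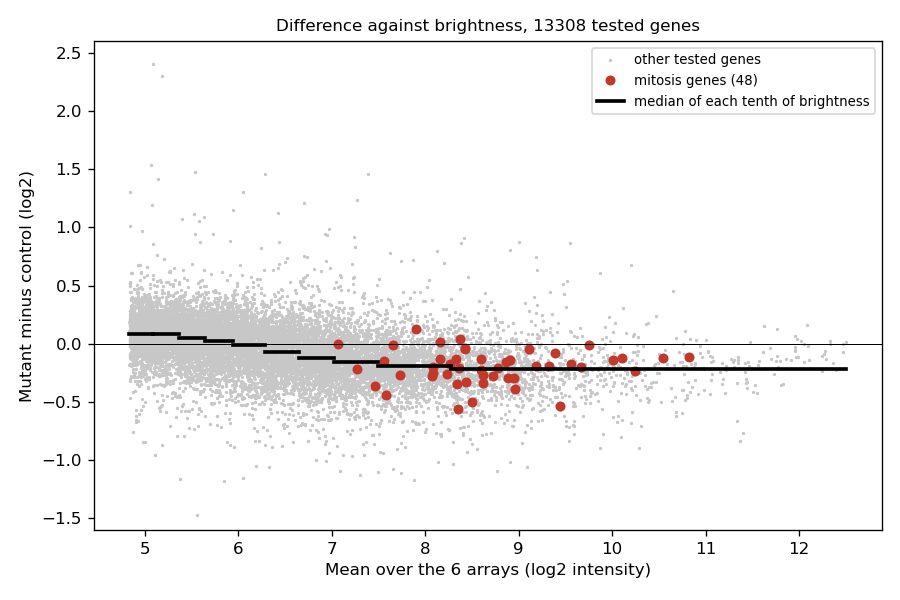
Log2 difference between mutant and control (vertical axis) against the mean log2 intensity over the 6 arrays (horizontal axis) for the 13308 tested genes (grey) and the 48 mitosis genes (red), with the median of each of 10 brightness groups as a black bar. The red points lie around the black bars of the 3 brightest groups, where the group medians are −0.16, −0.19 and −0.21. The members' median of −0.19 turns to 0.0077 once each array is centred on genes of like brightness.

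The 6 arrays did not fall into a low and a high group for these genes. Relative to each gene's control mean, the median over the 48 members was −0.11, 0.07 and 0.03 in the controls, and −0.09, −0.30 and −0.19 in the mutants. Control replicate 1 was thus below mutant replicate 1, and the other mutants were lower than every control. The genes of the brightest group had medians of −0.03, 0.00 and 0.02 in the controls and −0.00, −0.42 and −0.18 in the mutants. Mutant replicate 2 was low in bright genes at large, and less so in the mitosis genes. After centring on genes of like brightness the members stood at −0.09, 0.06 and 0.00 in the controls and −0.10, 0.11 and 0.00 in the mutants, so that mutant replicate 2 became the highest array.

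Relative to each gene's mean in its own group, the SD of the 48 members within an array was 0.08, 0.07 and 0.06 in the controls and 0.15, 0.23 and 0.15 in the mutants. The members were thus less alike within the mutant arrays, as were all tested genes, whose SD was 0.17, 0.14 and 0.12 in the controls and 0.25, 0.30 and 0.18 in the mutants; no test was made of these spreads. Mutant replicate 2 held the lowest of the 6 values for 29 members and the highest for 6, while mutant replicate 3 held the lowest for 12 and the highest for 0. Control replicate 2 held the highest value for 24 members. Control replicate 1 lay below the control mean for 43 of 48 members.

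**Figure D2:**
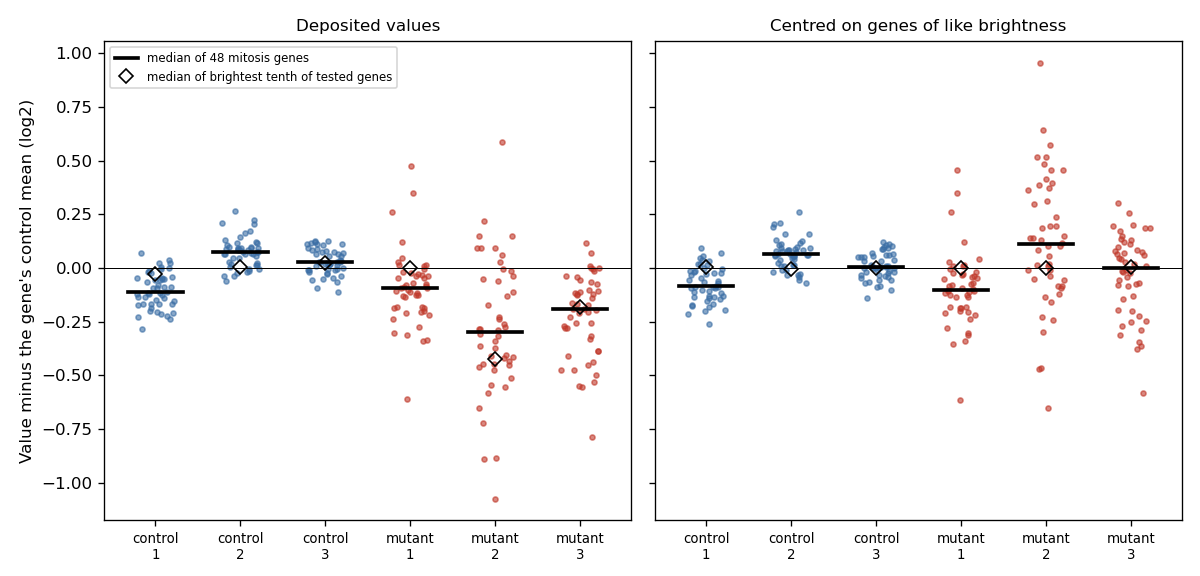
Each point is 1 of the 48 mitosis genes on 1 array, as its log2 value minus its control mean, with deposited values on the left and values centred on genes of like brightness on the right (bars, medians of the members; diamonds, median of the brightest of 10 groups of tested genes). On the left the medians of mutant replicates 2 and 3 (−0.30 and −0.19) lie near the diamonds (−0.42 and −0.18), and on the right mutant replicate 2 is the highest array at 0.11.

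A feature the members share, and which did not choose them, is the sequence around their transcription starts. Promoters of late cell cycle genes are known for a CHR element, with the letters TTTGAA, which the MuvB complex contacts, and for CCAAT boxes, which bind the factor NF-Y. RefSeq windows (GRCm38.p6) of 250 bases before to 50 after a start were found for 42 of the 50 genes, in 45 windows, and not used for Ccna2, Aurkb, Smc4, Incenp, Cdc25c, Tpx2, Spc24 and Kif20a. TTTGAA on either strand (TTTGAA or TTCAAA) was present in 34 of the 45 windows (75.6%), against 17.9% of all 32851 windows in the table. Within 50 bases of the start it was present in 29 (64.4%), against 4.94%. CCAAT on either strand (CCAAT or ATTGG) was present in 35 windows (77.8%), against 37.4%, and at least 2 copies in 22 (48.9%), against 11.7%. Both motifs were present in 30 windows (66.7%), against 6.95%. These letters overlap in no printed window, and a match is a description of sequence only.

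The stretches below run from 130 bases before to 30 after the start and show how such promoters are built, with TTTGAA and CCAAT matches on either strand in capitals. Cdk1, Ccnb2, Hmmr, Cenpa and Cdc20 had a lower mutant mean and hold both motifs, Prc1 holds both and had a higher mutant mean, and Mad2l1, whose groups did not overlap, holds neither. They lie at chr10:69352883-69353042 (minus strand), chr9:70421525-70421684 (minus strand), chr11:40733408-40733567 (minus strand), chr5:30666756-30666915 (plus strand), chr4:118437314-118437473 (minus strand), chr7:80294321-80294480 (plus strand) and chr6:66535091-66535250 (plus strand), in GRCm38.p6.
Cdk1: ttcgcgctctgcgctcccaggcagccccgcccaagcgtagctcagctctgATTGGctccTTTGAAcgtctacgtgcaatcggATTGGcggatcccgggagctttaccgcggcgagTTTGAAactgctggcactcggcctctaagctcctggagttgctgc
Ccnb2: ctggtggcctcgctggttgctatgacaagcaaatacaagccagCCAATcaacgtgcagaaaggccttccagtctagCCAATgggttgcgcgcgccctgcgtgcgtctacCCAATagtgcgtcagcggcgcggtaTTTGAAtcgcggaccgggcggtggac
Hmmr: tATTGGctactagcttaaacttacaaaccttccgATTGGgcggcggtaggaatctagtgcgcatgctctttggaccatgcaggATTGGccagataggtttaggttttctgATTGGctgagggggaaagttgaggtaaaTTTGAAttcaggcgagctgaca
Cenpa: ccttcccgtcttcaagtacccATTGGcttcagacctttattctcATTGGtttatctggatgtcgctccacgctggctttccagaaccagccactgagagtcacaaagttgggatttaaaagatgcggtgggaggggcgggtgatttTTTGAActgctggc
Cdc20: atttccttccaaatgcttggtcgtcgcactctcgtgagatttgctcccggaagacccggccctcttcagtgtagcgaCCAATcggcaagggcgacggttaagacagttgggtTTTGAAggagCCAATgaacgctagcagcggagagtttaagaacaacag
Prc1: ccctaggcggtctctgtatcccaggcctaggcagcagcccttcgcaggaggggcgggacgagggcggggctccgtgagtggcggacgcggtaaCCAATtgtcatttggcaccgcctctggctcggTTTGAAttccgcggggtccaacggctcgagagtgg
Mad2l1: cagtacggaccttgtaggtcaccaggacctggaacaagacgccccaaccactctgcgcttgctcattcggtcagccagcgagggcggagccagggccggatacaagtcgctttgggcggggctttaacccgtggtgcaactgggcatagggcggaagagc

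In Ccnb2 the CCAAT matches begin at −87, −54 and −21 and TTTGAA at 5, counted from the start base as 1. In Cdk1 the CCAAT matches begin at −80 and −48 and the TTTGAA matches at −71 and −15. In Prc1, counted from the upstream of its 2 starts, they begin at −37 and −5. Members with and without TTTGAA both leaned lower in the deposited values. The 30 tested members with TTTGAA in a window had a median difference of −0.20, with 28 lower, and the 10 members without it had a median of −0.26, with 10 lower. After centring on genes of like brightness these medians were 0.0077 and −0.06.

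Among the mitotic kinases and cyclins, the mutant mean was lower for 7 of 7 tested genes, with a median of −0.29 that became −0.09 against genes of like brightness (4 lower, 3 higher). Cdk1, the kinase that starts mitosis, was at 9.50, 9.84 and 9.80 in the controls and at 9.40, 8.82 and 9.30 in the mutants. The groups did not overlap, with control replicate 1 only a little above mutant replicate 1. The difference was −0.54 ± 0.18 (SE; adjusted p = 0.594 in limma), and −0.33 after centring on genes of like brightness. The phosphatase gene Cdc25c, whose product activates CDK1, also had groups that did not overlap, at −0.36 ± 0.14 (−0.20 after centring). Plk1, a kinase of spindle formation and mitotic entry, was at 8.98, 9.05 and 9.05 in the controls and at 8.99, 8.73 and 8.48 in the mutants. Mutant replicate 1 sat among the controls, and the difference was −0.29 ± 0.15, or −0.16 without mutant replicate 3. Ccna2, the gene of cyclin A2, was at 10.02, 10.26 and 10.20 and at 9.92, 10.05 and 10.16, so that the groups overlapped; its difference was −0.12 ± 0.12, and 0.09 after centring. Cdc25b was at −0.44 ± 0.23, or −0.25 after centring (−0.70 without mutant replicate 2, −0.26 without mutant replicate 3). Ccnb2 was at −0.14 ± 0.13 (0.06 after centring) and Cks2, the gene of a small CDK-binding protein, at −0.01 ± 0.18 (0.19 after centring). The 3 brighter Cks2 probe sets held identical values on every array, so they count as 1 reading, and the fourth gave −0.13.

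The chromosomal passenger complex corrects wrong attachments of chromosomes and later guides cytokinesis. Of its 4 genes 3 had a lower mutant mean (median −0.25, and −0.04 after centring on genes of like brightness), and Incenp was higher by less than its error. Birc5, the gene of survivin, was at 8.94, 9.25 and 9.26 in the controls and at 8.85, 8.57 and 8.88 in the mutants, with no overlap, and differed by −0.39 ± 0.14 (SE; −0.18 after centring). Aurkb, the kinase of the complex, was at 8.95, 9.20 and 9.12 and at 8.95, 8.85 and 8.59, where mutant replicate 1 and control replicate 1 met. Its difference was −0.29 ± 0.14, or −0.19 without mutant replicate 3. Incenp, the scaffold gene, was at 7.72, 7.84 and 7.94 and at 7.88, 8.42 and 7.58. Its mutant values held both the highest and the lowest array, and the difference of 0.13 ± 0.21 turned to −0.11 without mutant replicate 2. Cdca8, the gene of borealin, was at −0.20 ± 0.14 with no overlap, but at −0.09 without mutant replicate 3 and at −0.00084 after centring.

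The centromere and kinetochore genes included the lowest difference of the list. All 7 had a lower mutant mean (median −0.27), and after centring on genes of like brightness 4 were lower and 3 higher (median −0.08). Spc24, a subunit of the NDC80 complex that grips microtubules, was at 8.63, 8.68 and 8.58 in the controls and at 8.55, 7.56 and 8.10 in the mutants. The controls were tight, the mutants fanned out below them, and the difference of −0.56 ± 0.23 (SE) became −0.31 without mutant replicate 2. Cenpa, the histone variant gene that marks the centromere, was at 8.62, 8.81 and 8.80 and at 8.62, 7.85 and 8.27. Mutant replicate 1 was just under control replicate 1, and the difference of −0.50 ± 0.19 was −0.29 after centring and −0.30 without mutant replicate 2. Cenpe, a kinetochore motor gene, was at 9.01, 8.95 and 8.96 and at 8.88, 8.65 and 8.97. It overlapped, and its difference of −0.14 ± 0.12 turned to 0.07 after centring. The other members of the NDC80 complex were not alike. Nuf2 was at −0.34 ± 0.16 (−0.42 without control replicate 1, −0.18 without mutant replicate 2). Spc25 was at −0.27 ± 0.13, with no overlap in either gene, and Ndc80 itself was at −0.04 ± 0.13. After centring these were −0.13, −0.08 and 0.17. The groups of Cenpf overlapped, at −0.13 ± 0.13, or 0.07 after centring.

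The spindle checkpoint genes, which delay anaphase, all had a lower mutant mean (5 of 5, median −0.27, and −0.06 after centring on genes of like brightness). Bub1, a checkpoint kinase, was at 8.49, 8.54 and 8.50 in the controls and at 8.40, 7.79 and 8.31 in the mutants. All mutants were below the controls, mutant replicate 2 by the most, and the difference was −0.35 ± 0.17 (SE), or −0.16 without that array. Bub1b was at 8.77, 8.88 and 8.94 and at 8.83, 8.32 and 8.61, with mutant replicate 1 above control replicate 1. Its difference was −0.28 ± 0.15, or −0.15 without mutant replicate 2. Mad2l1, whose product binds CDC20 to stop anaphase, was at −0.20 ± 0.11 with no overlap. Bub3 was at −0.27 ± 0.15 (−0.38 without control replicate 1, −0.14 without control replicate 2) and the kinase gene Ttk at −0.04 ± 0.15. After centring these were −0.0079, −0.06 and 0.16.

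The genes that trigger anaphase lay at the level of their brightness group, with 4 of 4 lower (median −0.20) and 2 of 4 lower after centring (median −0.00061). Cdc20, which activates the anaphase promoting complex, was at 8.89, 8.90 and 8.87 in the controls and at 8.90, 8.48 and 8.66 in the mutants. Mutant replicate 1 matched the controls, and the difference of −0.21 ± 0.13 (SE) was −0.11 without mutant replicate 2. Ube2c, the ubiquitin-conjugating enzyme gene of that complex, was at 9.64, 9.85 and 9.79 and at 9.71, 9.33 and 9.64. These groups overlapped too, and the difference of −0.20 ± 0.14 was −0.08 without mutant replicate 2 and 0.0045 after centring. Espl1, the gene of separase, was at −0.22 ± 0.17, or −0.06 after centring (−0.32 without mutant replicate 2, −0.05 without mutant replicate 3). Pttg1, the gene of the separase inhibitor securin, was at −0.0048 ± 0.22 (0.15 after centring).

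The mitotic kinesins, motors that build the spindle and move chromosomes, had 6 of 6 genes lower with a median of −0.18, and 4 of 6 higher after centring on genes of like brightness (median 0.02). Kif4, a chromosome-bound motor, was at 8.07, 8.53 and 8.48 in the controls and at 8.32, 7.91 and 8.08 in the mutants. Control replicate 1 was within the mutant range, and the difference was −0.26 ± 0.17 (SE), or −0.07 after centring. It was −0.40 without control replicate 1 and −0.16 without mutant replicate 2. Kif11, which pushes the spindle poles apart, was at 9.44, 9.74 and 9.78 and at 9.43, 9.38 and 9.61. The groups overlapped, and the difference of −0.18 ± 0.14 became 0.03 after centring. Kif15, Kif20a, Kif23 and Kif2c ran from −0.22 to −0.01, and in none of them were the groups apart; after centring they ran from −0.02 to 0.18.

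The spindle assembly genes had 5 of 5 members lower (median −0.13), and 3 of 5 higher after centring on genes of like brightness (median 0.06). Hmmr, a spindle pole protein gene, was at 8.09, 8.30 and 8.23 in the controls and at 7.93, 7.76 and 8.10 in the mutants, so that mutant replicate 3 reached the control range. Its difference was −0.28 ± 0.13 (SE), or −0.09 after centring. Nusap1, which bundles microtubules near chromosomes, was at 9.37, 9.55 and 9.36 and at 9.24, 9.49 and 9.31. Here mutant replicate 2 was among the highest arrays, and the difference of −0.08 ± 0.12 became 0.12 after centring. Aurka, a spindle pole kinase gene, was at −0.25 ± 0.15, or −0.07 after centring (−0.39 without mutant replicate 2, −0.15 without mutant replicate 3). Tpx2, the activator of that kinase, was at −0.04 ± 0.13 (0.16 after centring). Ckap2 was at −0.13 ± 0.11 with no overlap, but took the other sign at 0.06 after centring and 0.04 after cyclic loess.

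The condensin and chromosome structure genes had 6 of 6 tested members lower (median −0.18), and 4 of 6 higher after centring on genes of like brightness (median 0.03). Top2a, the topoisomerase gene that untangles sister chromatids, was at 10.20, 10.42 and 10.47 in the controls and at 10.15, 10.08 and 10.16 in the mutants. The mutants were close together and just under control replicate 1, and the difference was −0.23 ± 0.12 (SE), or −0.03 after centring. Mki67, the gene of the proliferation marker Ki-67, which coats mitotic chromosomes, was at 10.75, 10.97 and 10.90 and at 10.80, 10.82 and 10.67. Control replicate 1 fell inside the mutant range, and the difference of −0.11 ± 0.12 was 0.09 after centring and 0.08 after cyclic loess. Ncaph, a condensin subunit gene, was at 8.40, 8.72 and 8.68 and at 8.48, 8.13 and 8.21, with an overlap at control replicate 1. Its difference was −0.33 ± 0.15, or −0.12 after centring. The other condensin genes, Ncapd2, Smc2 and Smc4, ran from −0.19 to −0.12, and after centring from 0.01 to 0.08.

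The cytokinesis genes were the only one of the 9 role groups with as many members higher as lower, 2 of 4 each (median −0.06), and all 4 were higher after centring on genes of like brightness (median 0.14). Prc1, which bundles the central spindle, was at 8.16, 8.56 and 8.33 in the controls and at 8.28, 8.57 and 8.34 in the mutants. The arrays interleaved, and the difference of 0.04 ± 0.15 (SE) turned to −0.05 without control replicate 1 and to −0.04 without mutant replicate 2. Ect2, which activates the contractile ring, was at 7.91, 8.37 and 8.17 and at 8.50, 8.02 and 7.98. Mutant replicate 1 was its highest array, and the difference of 0.02 ± 0.18 turned to −0.15 without mutant replicate 1 and to −0.10 without control replicate 1. Anln, the gene of the ring scaffold anillin, was at 8.21, 8.43 and 8.42 and at 8.36, 7.98 and 8.19. It overlapped as well, at −0.17 ± 0.14, or −0.08 without mutant replicate 2 and 0.01 after centring. Racgap1 was at −0.13 ± 0.13, or 0.07 after centring (−0.18 without mutant replicate 1, −0.03 without mutant replicate 3).

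**Figure D3:**
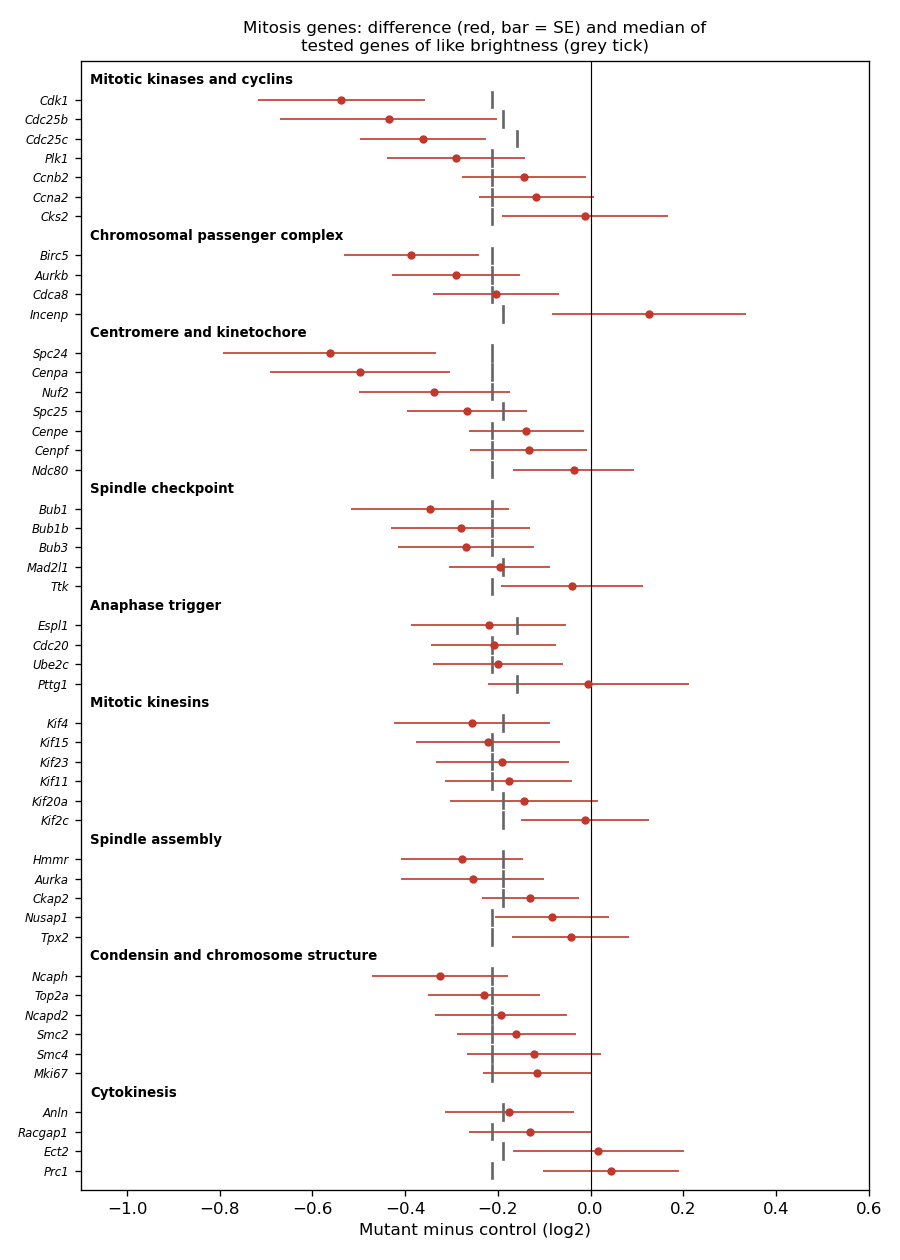
Log2 difference between mutant and control for the 48 tested mitosis genes, grouped by role (red points; bars, limma's SE), with the median difference of all tested genes in the same brightness group as a grey tick. The points scatter around the ticks (−0.16, −0.19 or −0.21), from Spc24 at −0.56 to Incenp at 0.13, and 23 points lie below and 25 above zero once arrays are centred on genes of like brightness.

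**Figure D4:**
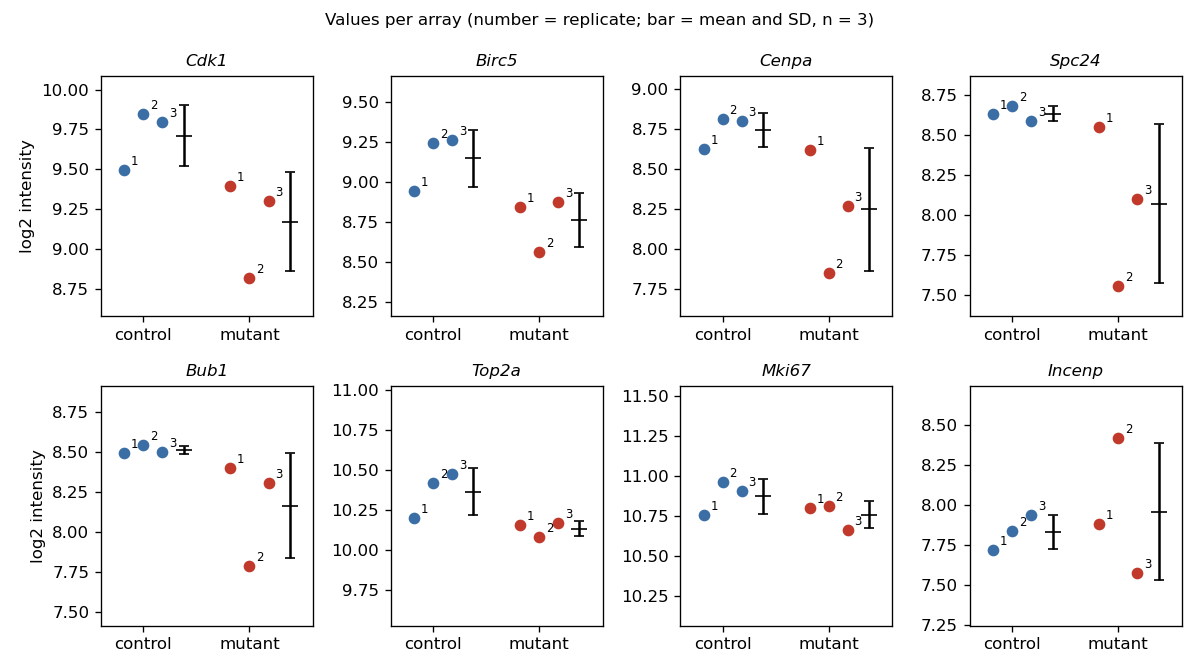
Log2 intensity of 8 members on each array (controls blue, mutants red; the number beside a point is its replicate; bars, mean ± SD, n = 3), on vertical axes of equal span that do not start at 0. Mutant replicate 2 is the lowest array for Cdk1, Birc5, Cenpa, Spc24, Bub1 and Top2a and the highest for Incenp, and control replicate 1 is the lowest control for Cdk1, Birc5, Cenpa, Bub1, Top2a, Mki67 and Incenp.

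Further mitosis genes outside the list had a median close to that of its members. Of 64 such genes, including centromere, kinesin and condensin II genes, 57 were tested. Of these, 51 had a lower and 6 a higher mutant mean, with a median of −0.20. The groups did not overlap, with the mutants lower, for 15 (26.3%), against 9.99% of tested genes. That share was 13.4%, 15.9%, 17.2% and 16.8% in the brightness groups 7, 8, 9 and 10, which held most of the 57. After centring on genes of like brightness 32 of the 57 were lower (median −0.04). Nsl1, a gene of the MIS12 kinetochore complex, was at 6.07, 6.02 and 6.04 in the controls and at 5.75, 5.16 and 5.16 in the mutants. The groups were well apart, and this difference of −0.69 ± 0.17 (SE, adjusted p = 0.594 in limma) was larger in size than that of any member. It was −0.72 after centring, in brightness group 4, whose median difference was 0.02. The motor gene Kif14 was at −0.44 ± 0.13 (−0.25 after centring). Of the 16 anaphase promoting complex genes 15 were lower (median −0.26, and −0.08 after centring), and the lowest p-values were those of Anapc16 (−0.59 ± 0.24) and Cdc16 (−0.45 ± 0.20). Without mutant replicate 2 that median was −0.12. Of 13 genes of cohesin, the ring that holds sister chromatids together, 13 were lower (median −0.25, and −0.04 after centring), with the lowest p-values for Esco2 (−0.40 ± 0.13) and Pds5a (−0.49 ± 0.18); without mutant replicate 2 the median was −0.15.

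Of the regulators of mitosis genes, Foxm1 and Mybl2 differed by less than their errors. Of 16 genes of the MuvB, B-Myb, E2F and NF-Y complexes 13 were lower (median −0.18, and −0.0054 after centring on genes of like brightness). Foxm1, a factor that drives mitosis genes, was at 8.15, 8.23 and 8.25 in the controls and at 8.10, 8.09 and 8.22 in the mutants, a difference of −0.07 ± 0.11 (SE) that turned to 0.12 after centring. Mybl2, the gene of B-Myb, was at 7.58, 7.53 and 7.61 and at 7.62, 7.66 and 7.51. Its groups overlapped fully, at 0.02 ± 0.11, or 0.21 after centring. The NF-Y subunit gene Nfya was at −0.33 ± 0.13 with no overlap, and the MuvB subunit gene Lin37 at −0.39 ± 0.16. These became −0.18 and −0.28 after centring. DNA replication genes, which act in S phase before mitosis, had 33 of 33 tested genes lower (median −0.25). Chaf1b (−0.52 ± 0.14, −0.41 after centring) and Gins2 (−0.77 ± 0.21, −0.56 after centring) had the lowest p-values among the replication genes. Centred on genes of like brightness, 25 of the 33 replication genes were lower (median −0.06), beside 23 of the 48 mitosis genes (median 0.0077). That contrast was not tested.

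The labelled cell type and the markers of other cells were read on the same arrays. The list of CLP sort and identity genes includes Thy1 and Ly6d, whose proteins the sort excluded, and Ly6a and Rag1 had no value. A lower value does not read the same way for an excluded marker. In this list 7 of 7 tested genes were lower (median −0.21, and −0.07 with 5 of 7 lower after centring), beside 45 of the 48 mitosis genes. Relative to the control mean their median was −0.09, 0.07 and −0.05 in the controls and −0.18, −0.32 and −0.33 in the mutants. Il7r, the CD127 gene, was at 9.72 to 10.35 over the 6 arrays (−0.34 ± 0.15, SE). Its difference was −0.49 without control replicate 1 and −0.22 without control replicate 2. The early lymphoid gene Dntt was at 10.61 to 11.04 (−0.20 ± 0.12). The recombinase gene Rag2 was at 8.24 to 8.87 (−0.25 ± 0.15, with −0.34 without control replicate 1 and −0.10 without control replicate 2). In these 3 (42.9%) the groups did not overlap, against 9.99% of tested genes and 13.4% to 17.2% in the brightness groups 7 to 10, which held all 7. Ly6d, whose protein the sort excluded, was at 7.0 to 8.25 (−0.57 ± 0.29, from −0.91 without control replicate 1 to −0.37 without control replicate 3). The others overlapped, with Flt3 at 6.62 to 7.36 (−0.18 ± 0.20), Kit at 6.96 to 7.41 (−0.02 ± 0.16) and the excluded marker Thy1 at 6.54 to 7.31 (−0.21 ± 0.18). Without control replicate 1 Flt3 and Kit took the other sign (0.03 and 0.11), as did Kit without mutant replicate 3 (0.07).

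The labels' tissue field names stromal cells. The bone and stromal genes Bglap (5.04 to 5.50), Col1a1 (5.82 to 6.08), Col1a2 (5.19 to 5.71) and Cxcl12 (5.75 to 6.27) and the endothelial gene Cdh5 (5.20 to 5.74) were above the limit for testing of 4.84. Pecam1, a gene of endothelial and some blood cells, was brighter at 7.30 to 7.88, and Sp7 (3.87 to 4.29) and Lepr (3.09 to 3.35) were too dim to be tested. With no detection call, none of them can be said to be at 0. These 6 tested genes had 4 lower (median −0.06, from −0.10 to 0.05 over the controls and −0.14 to 0.13 over the mutants; Pecam1 −0.19 ± 0.15), and 2 of 6 lower without control replicate 3 or without mutant replicate 1.

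Myeloid markers had 8 of 10 genes higher (median 0.30), with the lowest p-values for Elane (0.87 ± 0.53, SE) and Ms4a3 (0.71 ± 0.63). Without control replicate 2 only 4 of 10 were higher (median −0.02), with Elane at 0.34 and Ms4a3 at 0.20, and without control replicate 1 9 of 10 were (median 0.62), with Elane at 1.48 and Ms4a3 at 1.37. Without mutant replicate 1 the median was 0.08. Their median over genes, relative to the control mean, was 0.64, −0.48 and −0.14 in the controls and 0.71, −0.25 and 0.33 in the mutants. Centred on genes of like brightness, it was 0.66, −0.49 and −0.17 in the controls and 0.71, 0.13 and 0.52 in the mutants. On both scales it was highest on control replicate 1 and mutant replicate 1. The centred mitosis genes were lowest there (−0.09 and −0.10), but stood at 0.00 on mutant replicate 3. In the deposited values the mitosis genes were lowest on mutant replicates 2 and 3 (−0.30 and −0.19). Erythroid markers had 5 of 7 genes higher (median 0.08; 0.32, −0.22 and −0.06 in the controls and 0.29, −0.16 and 0.01 in the mutants), with the lowest p-values for Epor (0.37 ± 0.13, with no overlap) and Slc4a1 (−0.41 ± 0.23), and Car1 at 0.38 ± 0.52. Without control replicate 2 only 2 of 7 were higher (median −0.06), and Car1 took the other sign at −0.07. B lineage markers had 6 of 7 lower (median −0.27; −0.28, 0.19 and 0.09 in the controls and −0.14, −0.26 and −0.50 in the mutants), with the lowest p-values for Igll1 (−0.42 ± 0.17) and Cd79b (−0.37 ± 0.20). Megakaryocyte markers had 5 of 5 higher (median 0.17, from −0.20 to 0.18 in the controls and 0.12 to 0.23 in the mutants). Gp5 was at 0.21 ± 0.14 and Itga2b at 0.17 ± 0.14. The megakaryocyte median was 0.24 without control replicate 1 and 0.07 without control replicate 2. T lineage markers had 4 of 5 lower (median −0.31, from −0.32 to 0.57 in the controls and −0.41 to −0.14 in the mutants). Cd3g was at −0.56 ± 0.28, and Bcl11b at 0.23 ± 0.11 with no overlap. Without control replicate 3, 2 of 5 were lower (median 0.05). The part of these cells in the mitosis values was not tested.

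The arrays also differed in genes that mark sex. Eif2s3y, a gene of the Y chromosome, was at 4.88 on control replicate 1 and 4.77 on mutant replicate 3, and at 7.31 to 7.85 on the other arrays. Xist, the RNA of the inactive X chromosome of females, was at 11.04 and 10.72 on those same arrays, at 8.07 and 8.03 on control replicate 2 and mutant replicate 1, and at 6.57 and 5.57 on control replicate 3 and mutant replicate 2. Control replicate 2 and mutant replicate 1 thus carried both signals, and each group held 1 array of each pattern. With the level of Eif2s3y as a block, 0 of 48 members passed the adjusted threshold in limma. Each group held 1 array with low Eif2s3y, so this block cannot change a difference, only its error. The members' median of −0.19, with 45 of 48 lower, therefore had to stay as it was and says nothing about sex.

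Leaving out single arrays moved the members' values. Without mutant replicate 2, whose correlation with the other arrays was 0.922 to 0.938 against 0.967 to 0.989 among those, the members' median was −0.15, 6 members took the other sign and 23 more moved by over 1.5 times. Over the 6 fits that each left out 1 array, 11 of 48 members changed sign at least once (Cks2, Incenp, Ndc80, Ttk, Pttg1, Kif20a, Kif2c, Tpx2, Smc4, Prc1 and Ect2) and 0 passed the adjusted threshold in limma. With array weights, 17 members passed (35.4%), as did 22.2% of all tested genes; these weights put 5.20 on mutant replicate 3 and 0.21 to 1.89 on the others.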

How the data were processed

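RNA from 3 control and 3 mutant sorted CLP samples was measured, 1 array per sample; groups and replicate numbers came from the titles. The authors deposited log2 intensities per probe set. The submitters' processing notes name RMA; what version, annotation or genome build went into it is not given in the sources used here. RMA pulls the arrays' distributions together and gives no detection call. The table held 41345 probe sets, of which 23521 had 1 gene symbol in the platform annotation, 1814 had several and 16010 none. Each gene was its brightest probe set of 1 symbol; the dimmest 40% of genes (mean under 4.84) were not tested.

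The groups were compared with limma 3.58.1 in R 4.3.3 (lmFit, eBayes, 2-sided, Benjamini-Hochberg adjustment over 13308 genes, threshold 0.05); the script was tested on simulated data. Like brightness means the same of 10 groups of tested genes by mean over arrays. Centring subtracted, on each array, the group's median deviation from the genes' means. Figures used matplotlib 3.10.9. Members were listed by gene name and role, with no rule on measured values; members, lists and alternatives were nonetheless chosen with earlier results of these data known, so no list was tested. Genes named from other lists were those of the lowest p, or noted for their level. Named members were 7 set genes, per role the lowest p and highest mean, the extremes, and those of opposite sign; other members are given by value or range. The Y-linked block splits arrays at the midpoint of Eif2s3y, with control replicate 1 and mutant replicate 3 low. Same-numbered replicates deviated together at r = 0.13, 0.20 and −0.13, so the numbers were not treated as pairs. Precision is limited by 3 arrays per group.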

Additional observations from a re-analysis of the deposited data

How the results depend on the processing

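The members past the threshold were 0 and the genes past the threshold were 0 without a filter, with the dimmest 60% left out, with the mean of all probe sets, a trended and robust prior, repeated quantile normalization, cyclic loess, either centring, the replicate block and the Y-linked block. With array weights 17 members and 2960 genes passed (25 members and 5087 genes at an unadjusted p under 0.05, against 5 and 1068 in the chosen limma fit; an unmoderated test gave 0 and 879 genes). On leaving out 1 array, 0 members and 0 to 4 genes passed: 4 without mutant replicate 1 and 1 without mutant replicate 2. The replicate block, like the Y-linked block, is balanced between the groups and cannot change a difference, only its error. The members' median was thus bound to stay at −0.19 in both, and neither block changed a call.

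The members' median was −0.047 with repeated quantile normalization, −0.0077 after cyclic loess and 0.0077 when centred on genes of like brightness, with 33, 26 and 23 of 48 members lower. It was −0.14 with arrays centred on their medians and −0.24 to −0.15 on leaving out 1 array. Against the deposited values, 12 of 48 members took the other sign with repeated quantile normalization, 19 after cyclic loess, 22 when centred on genes of like brightness, 6 with arrays centred on their medians and 5 with array weights. Those named by the rule, with Foxm1 and Mybl2, took these values. With repeated quantile normalization Cenpe was at 0.034, Nusap1 at 0.035 and Foxm1 at 0.075. After cyclic loess Mki67 was at 0.077, Ccna2 at 0.073, Cenpe at 0.047, Kif11 at 0.012, Nusap1 at 0.11, Anln at 0.00050 and Foxm1 at 0.10. Centred on genes of like brightness, Mki67 was at 0.089, Ccna2 at 0.086, Cenpe at 0.065, Ube2c at 0.0045, Kif11 at 0.027, Nusap1 at 0.12, Anln at 0.013 and Foxm1 at 0.12. With array weights Prc1 was at −0.043, Incenp at −0.24, Ect2 at −0.18 and Mybl2 at −0.049. On leaving out 1 array Prc1 ran from −0.0497 to 0.15, Ect2 from −0.15 to 0.13, Incenp from −0.11 to 0.32 and Mybl2 from −0.0082 to 0.067. The cause was not tested. Arrays give no depth; low signals cannot be separated from background.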
